A study of Mus musculus with 9 samples.

Results

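The integrin subunits on the nCounter Mouse Immune Exhaustion panel were the 7 probes, of 785 on the panel, whose gene symbol begins with Itg. These were the alpha subunits Itgae (gene ID 16407), Itgal (16408), Itgax (16411), Itga6 (16403) and Itgav (16410) and the beta subunits Itgb3 (16416) and Itgb8 (320910), with 1 probe each. Marrow T-cells of 9 wild-type C57BL/6 females aged 6 to 8 weeks, in 3 groups of 3 mice, were purified on day 7 with a pan-T-cell isolation kit. The first group had no leukemia and no treatment. The other 2 groups were not irradiated and received 200000 BCR-ABL1+ Arf-/- B-ALL cells by tail vein, a transplanted acute lymphoblastic leukemia of the B lineage that expands in the marrow. Of these, 1 group was given recombinant IL-12 (rIL-12), 1 µg intraperitoneally each day for 5 days from day 3. The other is listed as untreated in the sample labels and as vehicle treated in the methods, and is called vehicle treated here. The question was how leukemia, and rIL-12 given during leukemia, alter transcripts of marrow T-cells.

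Integrins are cell surface receptors made of 1 alpha and 1 beta chain, which bind matrix proteins or counter-receptors on other cells and are switched to high affinity by signals from inside the cell, such as those of the T-cell receptor. Itgae encodes CD103, which pairs with the beta 7 chain, binds E-cadherin (Cdh1), and marks naive and tissue-resident CD8 T-cells and some dendritic cells in mice. Itgal encodes CD11a, which pairs with the beta 2 chain to form LFA-1, the receptor for Icam1 with which T-cells adhere to target cells. Itgax encodes CD11c, a beta 2 partner best known from dendritic cells. Itga6 encodes the alpha chain of laminin receptors. Itgav pairs with several beta chains, among them Itgb3 (vitronectin receptor) and Itgb8 (which activates latent TGF-beta).

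The assay counts fluorescent barcodes without amplification, 1 barcode per captured transcript. Totals ran from 257613 to 711748 counts per mouse, with the lowest in vehicle treated mouse 3. Normalized counts are the deposited counts divided by each mouse's TMM scale. A probe against a virus (LCMV) that was not given to these mice counted 53 to 114 per mouse and serves as a guide to nonspecific signal, although single probes can have a lower background than this one. The raw counts of Itgax and Itgb8 were at or below it in 9 of 9 mice, those of Itgae in no mouse of the leukemia-free group, in 2 given vehicle and in 3 given rIL-12, and those of Itgav in 1 mouse. Fold changes of these low probes rest on counts as small as 19. A gene was called when it changed at least 1.5-fold and the p of edgeR's quasi-likelihood test, adjusted by Benjamini-Hochberg across the 785 probes, was under 0.05. Both leukemia groups were compared with the same 3 mice without leukemia, so those comparisons are not independent.

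**Figure D1:**
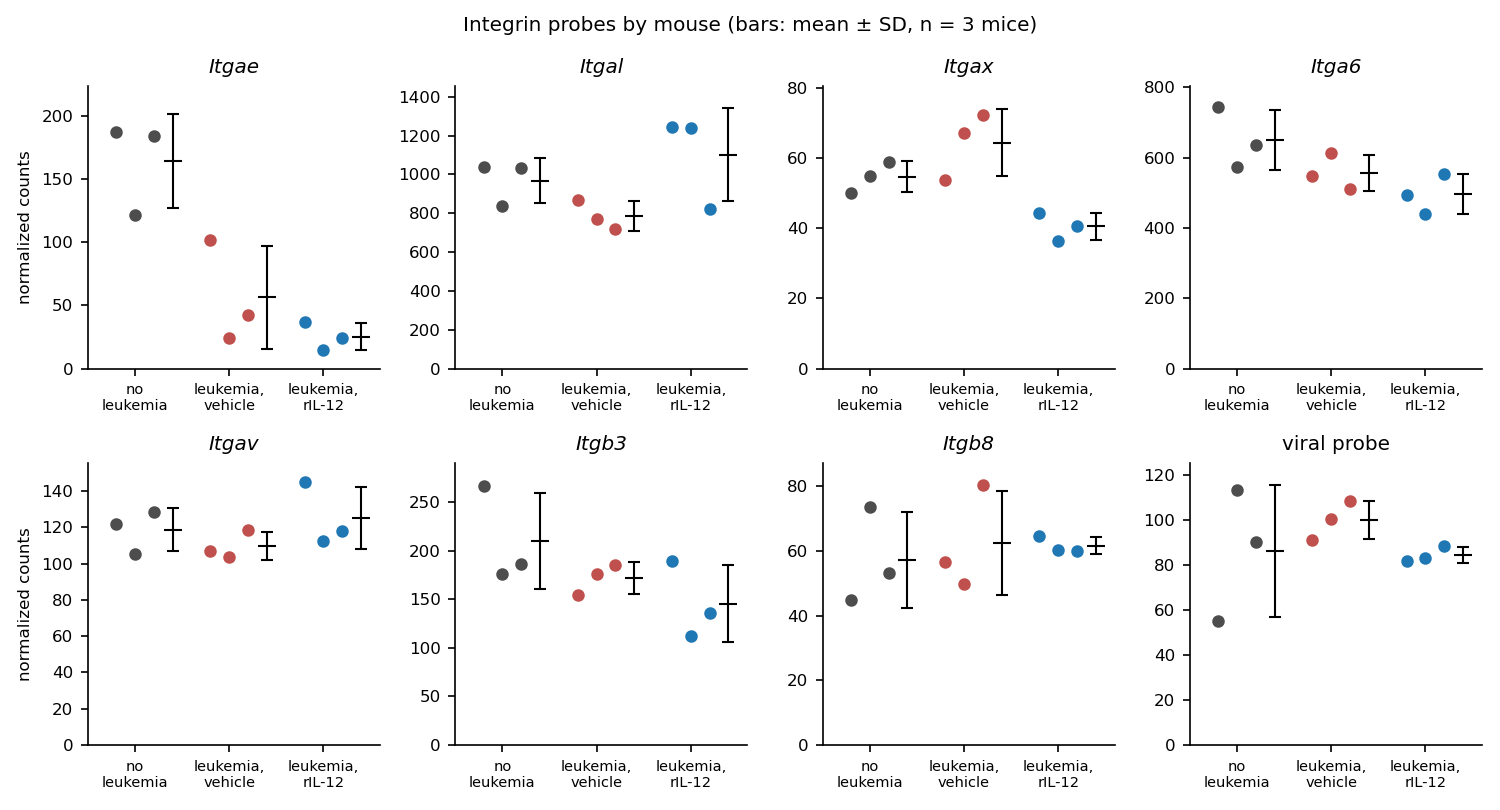
Normalized counts (vertical axis, from 0, with its own scale in each panel) of the 7 integrin probes and the viral probe in the 9 mice. Points are mice 1 to 3 of each group from left to right, and bars are the mean ± SD; Itgae was above 121 in every mouse without leukemia and at 102 or below in every mouse with leukemia.

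Itgae was the integrin subunit that differed most between the groups. In mice without leukemia it measured 188, 121 and 184 normalized counts in mice 1, 2 and 3. In vehicle treated mice with leukemia it measured 102, 24.5 and 42.7, and in rIL-12 treated mice 36.6, 15.0 and 24.4. All 6 mice with leukemia were lower than all 3 mice without it, whereas the 2 leukemia groups overlapped, with vehicle treated mouse 1 standing above the others. The group means were 164 ± 37.4, 56.5 ± 40.6 and 25.4 ± 10.8 (SD, n = 3 each).

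With rIL-12, Itgae fell 6.30-fold relative to mice without leukemia (log2 fold change -2.66, SE 0.44, 95% interval -3.66 to -1.75, edgeR adjusted p = 0.00103). It was the only integrin probe of 7 called in that comparison, in which 17.6% of all probes were called and 8.66% were called lower. The call held in all 9 fits that left out a mouse, with log2 fold changes from -3.02 to -2.38. Among these, the fits without a vehicle treated mouse kept every mouse of this comparison. In the rIL-12 group every raw count of Itgae, 43, 19 and 24, was under that mouse's viral probe count, so the level there is close to what the assay can resolve.

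In vehicle treated mice the Itgae mean was 2.85-fold lower than without leukemia (log2 fold change -1.51, SE 0.41, 95% interval -2.42 to -0.63), with an edgeR adjusted p of 0.0855 that missed the threshold. No integrin probe was called there by edgeR, where 2.68% of all probes were. At an unadjusted edgeR p under 0.05 with a 1.5-fold change, 1 of 7 passed, Itgae, against 9.94% of all probes. DESeq2 called Itgae (log2 fold change -1.58, adjusted p = 0.00548) and no other integrin, against 7.05% of the probes to which it gave an adjusted p. With the replicate number as a block, Itgae was also called (log2 fold change -1.65, edgeR adjusted p = 0.00686). Without vehicle treated mouse 1 the log2 fold change was -2.32 with an adjusted p of 0.00253 (edgeR), and without mouse 2 of that group it was -1.11 with 0.298 (edgeR). Between rIL-12 and vehicle treated mice the log2 fold change was -1.14 (SE 0.47, 95% interval -2.19 to -0.16, edgeR adjusted p = 0.0980), and the exact permutation p was 0.2. It was not called by edgeR, while DESeq2 gave an adjusted p of 0.0490. Without vehicle treated mouse 1 it was -0.34.

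**Figure D2:**
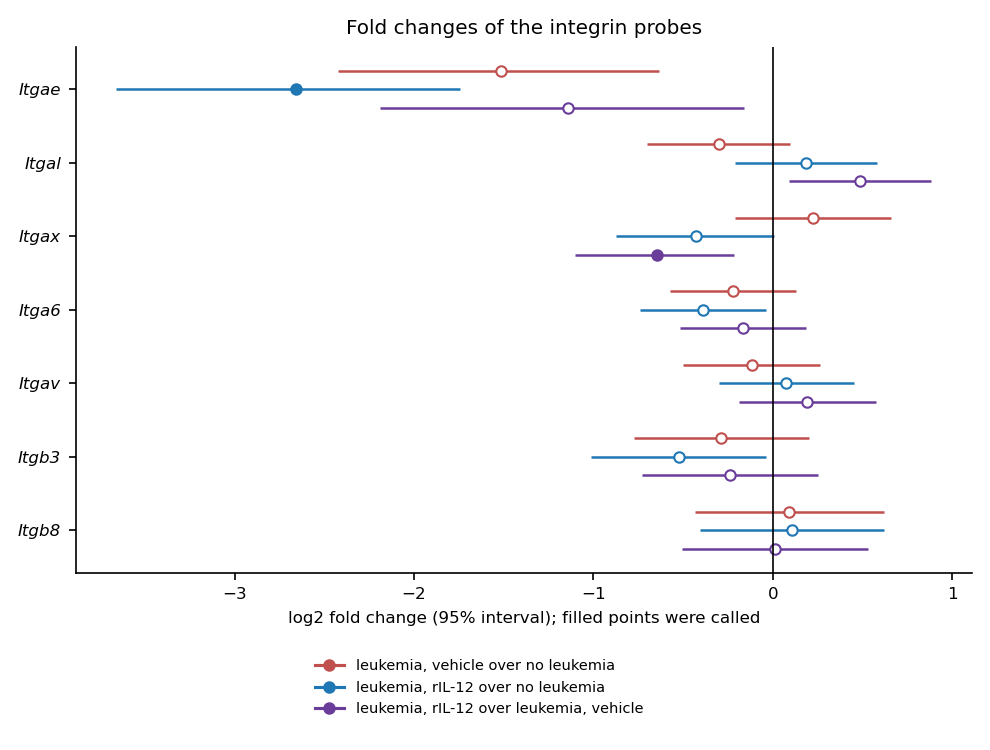
Log2 fold changes (horizontal axis) of the 7 integrin probes in the 3 comparisons, with 95% intervals from edgeR. Filled points were called, which held for Itgae with rIL-12 against no leukemia (-2.66) and for Itgax with rIL-12 against vehicle (-0.65).

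Markers shared by T-cells and those of CD8 T-cells were lower where Itgae was lower, while the measured CD4 markers were not called. All 6 measured T-cell markers (Cd3d, Cd3e, Cd3g, Cd5, Cd6 and Trat1) were called lower with rIL-12 than without leukemia. Their median change on the log2 scale was -1.37, against 0.02 over all 785 probes. Their summed level was 2872 to 4975 normalized counts without leukemia, 1904 to 2597 with vehicle and 1087 to 1906 with rIL-12. With vehicle, against no leukemia, edgeR called none of the 6, with a median of -0.75. At an unadjusted edgeR p under 0.05 with a 1.5-fold change 4 of 6 passed, against 9.94% of all probes. DESeq2 called 4, Cd3d, Cd3e, Cd3g and Trat1, all lower, against 7.05% of the probes to which it gave an adjusted p. Both CD8 markers, Cd8a and Cd8b1, were called lower in both leukemia groups than in mice without leukemia. Of all probes, edgeR called 2.68% with vehicle and 17.6% with rIL-12 in either direction. The summed level of the CD8 markers was 1331 to 2584, 217 to 934 and 195 to 314 normalized counts in the 3 groups. The CD4 T-cell markers Cd4 and Cd40lg had median log2 fold changes of 0.52 with vehicle and -0.08 with rIL-12 against no leukemia. Neither was called by edgeR or DESeq2. With vehicle both changes were positive and 1 of 2 passed the unadjusted rule, against 9.94% of all probes, and with rIL-12 none passed it. The summed level of the CD4 markers was 213 to 346, 304 to 520 and 193 to 317 normalized counts. In such bulk samples, fewer cells of a type and less RNA per cell cannot be told apart. The defining Cd3 chains were present in every mouse, with Cd3d at 1063 to 1829 normalized counts without leukemia and 303 to 583 with rIL-12.

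Markers of other cells also differed between the groups, among them dendritic cells and regulatory T-cells, which can carry CD103. Of 7 listed dendritic cell markers the 2 measured, Siglech and Ccr7, were both called lower with rIL-12 than without leukemia. With vehicle Ccr7 was called lower and Siglech was not called. Over all probes, against no leukemia, edgeR called 2.68% with vehicle and 17.6% with rIL-12, in either direction. Their summed levels were 913 to 1487 normalized counts without leukemia, 347 to 613 with vehicle and 199 to 327 with rIL-12. Ccr7, which is also a gene of naive T-cells, averaged 843, 221 and 107 of these counts in the 3 groups. Both measured mast cell and basophil markers (Cpa3 and Ms4a2) were called higher in both leukemia groups, with summed levels of 738 to 819, 1425 to 1723 and 1436 to 1850. Of 3 measured regulatory T-cell markers (Foxp3, Il2ra and Ctla4) edgeR called 1, Foxp3, lower with rIL-12 against no leukemia. With vehicle edgeR called none, and 2 of 3 passed the unadjusted rule in either direction, against 9.94% of all probes. DESeq2 called Il2ra lower with vehicle (log2 fold change -0.90, adjusted p = 0.0442), against 7.05% of the probes to which it gave an adjusted p. The summed level of the 3 markers was 370 to 386 without leukemia, 265 to 445 with vehicle and 180 to 346 with rIL-12. The part of these lists in the Itgae result was not tested.

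Itgae was also expressed relative to the Cd3 chains of the same mouse, as the log2 of its raw count over the geometric mean of Cd3d, Cd3e and Cd3g. This ratio was -2.75, -2.52 and -2.50 without leukemia, -2.61, -4.49 and -3.41 with vehicle, and -2.71, -4.55 and -4.23 with rIL-12. Mouse 1 of each leukemia group lay within the range of the mice without leukemia, and mice 2 and 3 lay below it. The mean log2 ratio differed from mice without leukemia by -0.91 with vehicle and by -1.24 with rIL-12, each with an exact permutation p of 0.2, where 0.1 is the smallest that 3 against 3 mice allow. Between rIL-12 and vehicle the difference was -0.32 (exact permutation p = 0.7). The groups overlapped in all 3 comparisons of this ratio. Without vehicle treated mouse 1 the difference with vehicle was -1.36 and without mouse 2 it was -0.42, and without rIL-12 treated mouse 1 the difference with rIL-12 was -1.80. After subtracting each mouse's viral probe count the differences were -3.16 with vehicle (exact permutation p = 0.2) and -3.86 with rIL-12 (exact permutation p = 0.1, with no overlap). Itgae was then at the floor in 2 vehicle treated and 3 rIL-12 treated mice, so these sizes depend on the floor of 1 count.

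Relative to Cd8a, which encodes the CD8 alpha chain, the differences of Itgae between groups were smaller than the spread among the mice with leukemia. This log2 ratio was -1.63, -1.49 and -1.36 without leukemia, -1.36, -2 and -0.66 with vehicle, and -0.78, -2.20 and -2.09 with rIL-12. The mean differed from mice without leukemia by 0.15 with vehicle and by -0.20 with rIL-12 (exact permutation p = 0.8 for both), and by -0.35 between rIL-12 and vehicle (exact permutation p = 0.5). The mice with leukemia spread over a wider range than those without, on both sides of them. Cd8a was itself at or below the viral probe in 2 vehicle treated and 2 rIL-12 treated mice, where Itgae was too, so the ratio in those mice is between counts near background. Such values do not show that the ratio was equal.

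**Figure D3:**
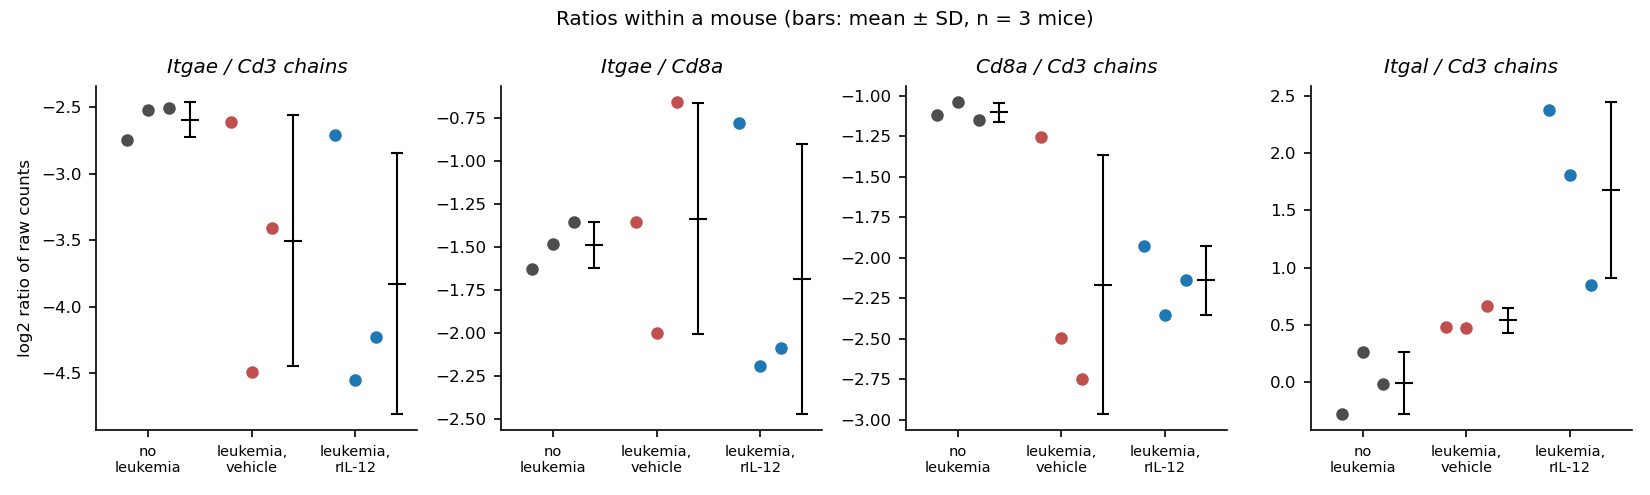
Log2 ratios of raw counts within each mouse (vertical axes, not starting at 0) for Itgae over the Cd3 chains, Itgae over Cd8a, Cd8a over the Cd3 chains and Itgal over the Cd3 chains. Points are mice 1 to 3 of each group from left to right and bars the mean ± SD; Itgae over the Cd3 chains overlapped between all groups, while Itgal over the Cd3 chains was higher in all 6 mice with leukemia than in the 3 without.

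The 5 probes whose pattern over the 9 mice was most like that of Itgae were Ccr7, Dgka, Cd8b1, Rasgrp1 and Cd8a. Likeness was the root mean square difference of log2 normalized counts after subtracting each probe's mean, which was 0.391 for Ccr7, 0.463 for Dgka, 0.473 for Cd8b1, 0.495 for Rasgrp1 and 0.512 for Cd8a, against a median of 1.35 over 750 probes. Ccr7 encodes the lymph node homing receptor of naive T-cells and is also expressed by mature dendritic cells, and Dgka encodes a diacylglycerol kinase that restrains T-cell receptor signaling. Cd8b1 encodes the CD8 beta chain, and Rasgrp1 the exchange factor that links diacylglycerol to Ras.

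Ccr7 illustrates the shared pattern, with 1156, 537 and 837 normalized counts without leukemia, 399, 148 and 117 with vehicle and 112, 67.3 and 141 with rIL-12. Mouse 2 was the lowest and mouse 1 the highest of the mice without leukemia for each of the 5 probes and for Itgae. Among vehicle treated mice, mouse 1 was the highest for all of these. The 5 probes were selected for likeness to Itgae over the same mice, so these shared orders follow in part from the selection. The order without leukemia was not particular to them. Cd3d, Cd3e, Cd3g and Lck had it too, with 1829, 1063 and 1502 normalized counts of Cd3d, whereas Zap70 and Itgb8 did not. The Cd3 chains were less like Itgae, at ranks 17 (Cd3e), 18 (Cd3d) and 29 (Cd3g). Of the other integrins, the nearest was Itgb3 at rank 63, followed by Itga6 at 94, Itgax at 155, Itgav at 256, Itgal at 337 and Itgb8 at 437.

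**Figure D4:**
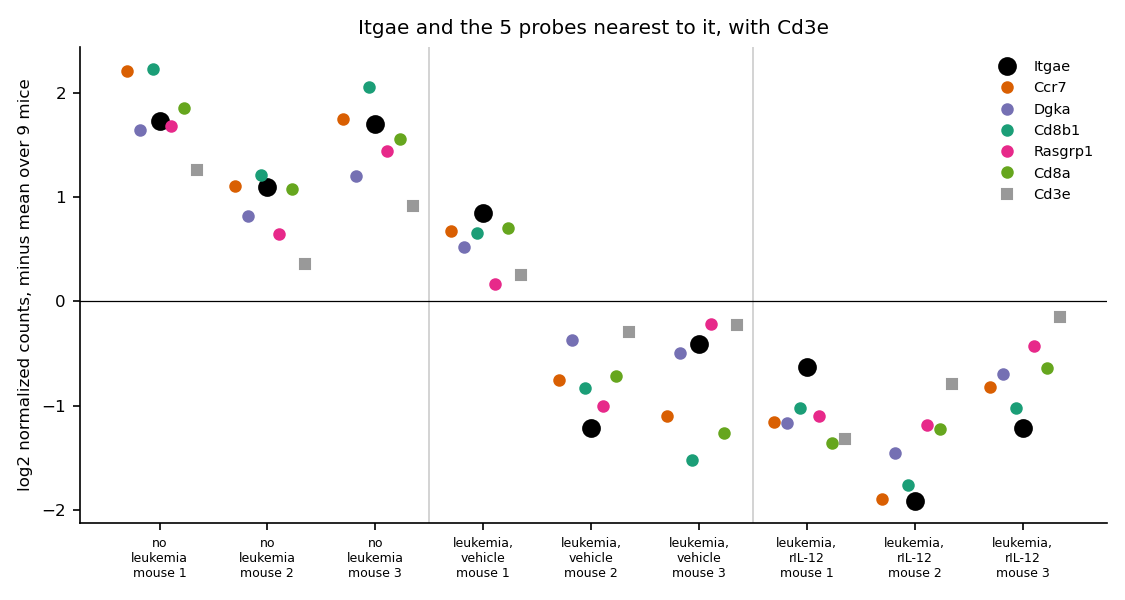
Log2 normalized counts minus each probe's mean over the 9 mice (vertical axis) for Itgae, its 5 nearest probes and Cd3e (squares), by mouse (horizontal axis). All 7 probes lay above 0 in the 3 mice without leukemia and in vehicle treated mouse 1, and below 0 in the other mice.

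Itgax was the other called integrin, lower with rIL-12 than with vehicle. It measured 50.1, 54.7 and 58.9 normalized counts without leukemia, 53.6, 67.2 and 72.3 with vehicle, and 44.3, 36.4 and 40.7 with rIL-12. All 3 rIL-12 treated mice lay below all other mice, and the other 2 groups overlapped. Raw counts of Itgax were at or below the viral probe in 9 of 9 mice. The viral probe itself was lower in every rIL-12 treated mouse (81.7, 83.2 and 88.5 normalized counts) than in every vehicle treated mouse (91.3, 101 and 108). Without leukemia it measured 55.3, 113 and 90.3. The part of nonspecific signal in the Itgax result was not tested. The mean was 1.57-fold lower than with vehicle (log2 fold change -0.65, SE 0.20, 95% interval -1.10 to -0.22, edgeR adjusted p = 0.0463). In that comparison 1 of 7 integrin probes was called, against 13.8% of all probes (5.22% lower), and the groups did not overlap for 1 of 7, against 30.7% of all probes.

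That call lay close to both thresholds. It remained in only 1 of the 9 fits that left out a mouse, the one without vehicle treated mouse 1, with log2 fold changes from -0.77 to -0.57. DESeq2 gave an adjusted p of 0.0564. Against mice without leukemia the log2 fold change of Itgax was -0.43 with rIL-12 (95% interval -0.88 to 0.01, edgeR adjusted p = 0.161) and 0.22 with vehicle (edgeR adjusted p = 0.689). Of 7 listed dendritic cell markers 2 were measured, Siglech and Ccr7, and neither edgeR nor DESeq2 called them between rIL-12 and vehicle, with summed levels of 199 to 327 and 347 to 613 normalized counts. At an unadjusted edgeR p under 0.05 with a 1.5-fold change 1 of them passed, Ccr7, as did 175 of all 785 probes. Of the 5 measured myeloid markers (Csf1r, Cd14, Cd68, Fcgr1 and Csf3r) edgeR called none in that comparison. DESeq2 called 2 higher, Cd68 and Fcgr1, and called 136 of all 785 probes in either direction. Summed levels of the myeloid markers were 2519 to 3289 with rIL-12 and 2563 to 2941 with vehicle. Their part in the Itgax result was not tested.

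Itgal had a different order of groups from Itgae, with the highest mean in rIL-12 treated mice. It measured 1038, 836 and 1032 normalized counts without leukemia, 868, 768 and 719 with vehicle, and 1242, 1238 and 824 with rIL-12. Mice 1 and 2 with rIL-12 were higher than all others, while mouse 3 lay within the range of the vehicle treated mice. The log2 fold change between rIL-12 and vehicle was 0.49 (SE 0.18, 95% interval 0.09 to 0.88, edgeR adjusted p = 0.0818) and was not called. Without rIL-12 treated mouse 3 it was 0.66 and was called (edgeR adjusted p = 0.00501), as it was with median scaling, at 0.63 (edgeR adjusted p = 0.0462). It was 0.11 with housekeeping scaling, 0.25 after quantile normalization and 0.29 with total count scaling. Its log2 fold changes against mice without leukemia were -0.30 with vehicle and 0.19 with rIL-12, neither called, and the latter was -0.11 when the counts were scaled to housekeeping probes.

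Relative to the Cd3 chains, Itgal and Itga6 separated the groups in all 3 comparisons. The log2 ratio of Itgal was -0.28, 0.26 and -0.02 without leukemia, 0.48, 0.47 and 0.67 with vehicle, and 2.38, 1.81 and 0.85 with rIL-12. All rIL-12 treated mice lay above all vehicle treated mice, and these above all mice without leukemia. The mean differences of Itgal were 0.55 with vehicle and 1.69 with rIL-12 against no leukemia, and 1.14 between them, each with the smallest possible exact permutation p of 0.1. Those of Itga6 were 0.63, 1.14 and 0.51, with the same exact permutation p. The Cd3 chains themselves had lower means in the leukemia groups. Against no leukemia their log2 fold changes were -0.79 to -0.95 with vehicle and -1.28 to -1.71 with rIL-12. Those of Itga6 were -0.22 and -0.39, so its ratio rose while its own counts did not. The other 4 integrins apart from Itgae also had higher mean ratios to Cd3 in both leukemia groups than without leukemia. The share of all probes that separated the groups in this ratio was not computed. Myeloid cells express Itgal too. Of the 5 myeloid markers 2 were called higher with rIL-12 than without leukemia, against 17.6% of all probes called in either direction. The summed level of the 5 markers was 2247 to 2397 normalized counts without leukemia, and their part in this ratio was not tested.

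Itga6 and Itgb3 were lowest on average with rIL-12, but neither was called. Itga6 measured 743, 573 and 635 normalized counts without leukemia, 549, 612 and 509 with vehicle, and 495, 440 and 554 with rIL-12. The rIL-12 group did not overlap the group without leukemia, with a log2 fold change of -0.39 (SE 0.16, 95% interval -0.74 to -0.04, edgeR adjusted p = 0.113). In that comparison the groups did not overlap for 3 of 7 integrin probes, Itgae, Itga6 and Itgax, against 35.5% of all probes. With vehicle the groups did not overlap for 1 of 7, Itgae, against 22.5% of all probes.

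Itgb3 measured 266, 176 and 186 normalized counts without leukemia, 154, 176 and 186 with vehicle, and 189, 112 and 135 with rIL-12. The groups overlapped throughout, and mouse 1 without leukemia stood above the rest. Its log2 fold change with rIL-12 was -0.52 against no leukemia (SE 0.22, 95% interval -1.01 to -0.04, edgeR adjusted p = 0.123). Without rIL-12 treated mouse 1 it was -0.76 and was called (edgeR adjusted p = 0.0367). Itgb3 is abundant in megakaryocytes and platelets, and none of 8 listed markers of these cells was on the panel.

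Itgav and Itgb8 were not called in any comparison, and their groups overlapped in all 3. Itgav measured 105 to 128 normalized counts without leukemia, 103 to 118 with vehicle and 112 to 145 with rIL-12, with log2 fold changes between -0.12 and 0.19 in the 3 comparisons. Itgb8 measured 44.9 to 73.6, 49.9 to 80.5 and 60.0 to 64.7, below the viral probe throughout, with log2 fold changes between 0.01 and 0.10. For both probes the changes in the rIL-12 comparisons turned negative when counts were scaled to housekeeping probes or to total counts, and that of Itgb8 with vehicle turned negative after quantile normalization.

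Of the integrin pairs, both chains were measured only for Itgav with Itgb3 and Itgav with Itgb8. The log2 ratio of Itgav to Itgb3 was -1.12, -0.74 and -0.54 without leukemia, -0.52, -0.77 and -0.65 with vehicle, and -0.39, 0.01 and -0.20 with rIL-12. It was higher in all 3 rIL-12 treated mice than in all other mice, by 0.61 against no leukemia and by 0.46 against vehicle, each with the smallest possible exact permutation p of 0.1. Between vehicle treated and leukemia-free mice it differed by 0.15 (exact permutation p = 0.6). For Itgav and Itgb8 the differences were -0.23, -0.06 and 0.17, with exact permutation p-values of 0.6, 0.9 and 0.5.

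Of 27 listed integrin ligands 4 were measured, and none was called in any comparison. These were Icam1, the LFA-1 ligand, Vcam1, the ligand of alpha 4 integrins, Cdh1, the ligand of CD103, and Fga, a fibrinogen chain bound by beta 3 integrins. At an unadjusted edgeR p under 0.05 with a 1.5-fold change none passed either. DESeq2 called none, although it gave Fga no adjusted p in the comparisons with no leukemia. Raw counts of Vcam1 (34 to 75) and Fga (9 to 24) were under the viral probe in every mouse. Cdh1 measured 36.1 to 44.9 normalized counts without leukemia, 46.6 to 69.0 with vehicle and 42.7 to 61.3 with rIL-12, a range under the viral probe. Its log2 fold changes against mice without leukemia were 0.53 with vehicle (edgeR adjusted p = 0.290) and 0.37 with rIL-12 (edgeR adjusted p = 0.294).

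Of 41 listed genes that carry signals to or from integrins 9 were measured, and those that edgeR called were lower. With rIL-12 against no leukemia 3 of 9 were called, against 17.6% of all probes, with vehicle 1 of 9, against 2.68%, and between rIL-12 and vehicle 2 of 9, against 13.8%. Lck encodes the kinase that starts T-cell receptor signaling. It measured 1761, 1075 and 1407 normalized counts without leukemia, 979, 903 and 647 with vehicle and 349, 483 and 564 with rIL-12. The 3 groups did not overlap for Lck, which fell with rIL-12, with log2 fold changes of -1.60 against no leukemia (edgeR adjusted p = 0.000681) and -0.86 against vehicle (edgeR adjusted p = 0.0276).

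Rasgrp1 fell in both leukemia groups, with log2 fold changes against no leukemia of -1.59 with vehicle (edgeR adjusted p = 0.0241) and -2.17 with rIL-12 (edgeR adjusted p = 0.000744). Zap70, the kinase recruited to the T-cell receptor, measured 688, 530 and 487 normalized counts without leukemia, 529, 741 and 480 with vehicle and 122, 197 and 449 with rIL-12. It fell with rIL-12, with log2 fold changes of -1.15 against no leukemia (edgeR adjusted p = 0.0438) and -1.19 against vehicle (edgeR adjusted p = 0.0459), and rIL-12 treated mouse 3 was near the lowest mice of the other groups. Both Zap70 calls were lost in most fits that left out a mouse, remaining in 3 and 1 of 9. Of those 3, only the fit without rIL-12 treated mouse 3 left out a mouse of that comparison. The Lck call against vehicle remained in 2 of 9 and the Rasgrp1 call with vehicle in 5 of 9. Each set of 9 includes 3 fits that left out a mouse of the group not compared.

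The other 6 signaling genes were not called by edgeR in any comparison. They were the kinases Fyn, Syk and Ptk2b, the adaptor Lcp2, and the GTPases Rac1 and Cdc42. Fyn, Ptk2b and Lcp2 had log2 fold changes between -0.52 and 0.02, and Syk between -0.23 and 0.39, and Cdc42 between -0.06 and 0.32. Rac1 was 0.58 between rIL-12 and vehicle, with no overlap of the groups (edgeR adjusted p = 0.0583), and DESeq2 called it (adjusted p = 0.0387). These genes are shared by T-cell receptor and integrin signaling, and the T-cell markers given above moved in the same direction as Lck, Rasgrp1 and Zap70 with rIL-12. Relative to the Cd3 chains, Lck lay between 0.43 and 0.62 log2 units without leukemia, 0.51 and 0.71 with vehicle, and 0.30 and 0.55 with rIL-12. This ratio was not computed for Rasgrp1 and Zap70. With vehicle against no leukemia, log2 fold changes were -0.79 to -0.95 for the Cd3 chains, -1.59 for Rasgrp1 and 0.04 for Zap70. With rIL-12 they were -1.28 to -1.71, -2.17 and -1.15. The part of the T-cell markers in these changes was not tested.

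**Figure D5:**
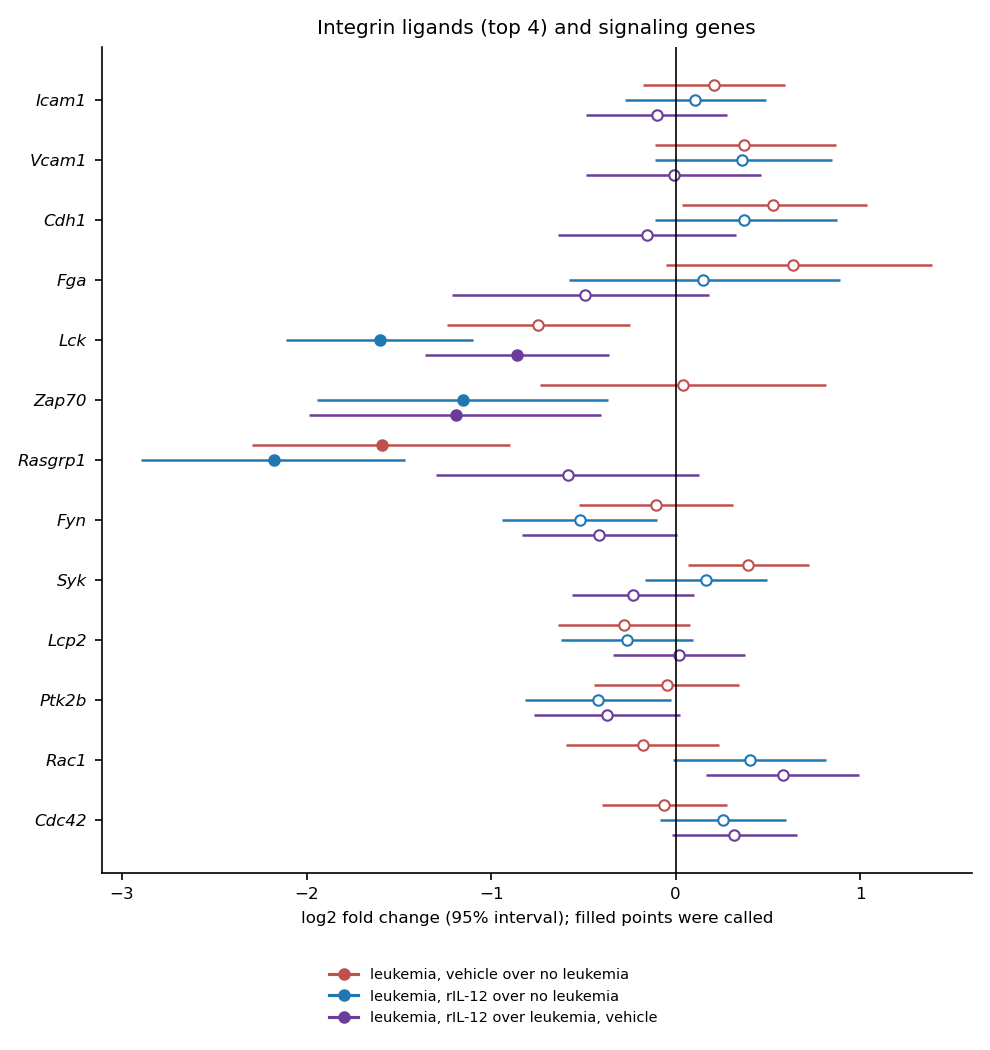
Log2 fold changes (horizontal axis) with 95% intervals from edgeR of the 4 measured integrin ligands and 9 measured signaling genes in the 3 comparisons. Filled points were called, which held for Lck, Zap70 and Rasgrp1, all of them lower, and for no ligand.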

How the data were processed

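Barcode counts of 785 probes in 9 mice were analysed, 3 mice per group. Counts were deposited by the authors as whole numbers per probe, before the nSolver normalization described in the methods, and the assay's control probes are not analysed here. All columns were used. A RefSeq table paired the transcript in each probe's name with a symbol for 751 of 785 probes. No genome build was given in the sources used here, so no coordinates or sequences are printed.

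After TMM scaling, a quasi-likelihood model was fitted to all 9 mice in edgeR 4.0.16 (R 4.3.3), without a replicate block and with a prior count of 1. Genes were called at a Benjamini-Hochberg adjusted p under 0.05 over 785 probes and a 1.5-fold change. Ratios were compared by exact two-sided permutation tests of log2 ratios. DESeq2 1.42.0, limma 3.58.1 and the alternatives in the closing section were also run. The text names every integrin probe, the ligand and signaling genes called in a comparison, the 5 probes nearest to Itgae, and Cd3d, Cd3e, Cd3g, Cd8a and Cdh1. The other genes of the ligand, signaling and marker lists are named beyond this rule, with their values seen. Members and lists were chosen with earlier results of these data known.

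Replicate numbers of the labels were checked for pairing by correlating the deviations of same-numbered mice from their group means. These were 0.26, 0.11 and 0.13 for vehicle against no leukemia, 0.01, -0.08 and -0.19 for rIL-12 against no leukemia, and 0.33, 0.13 and 0.02 for rIL-12 against vehicle, so only the first comparison met the rule of 0.1 in every pair. Mice with different numbers correlated at -0.26 to 0.13 in that first comparison, and at up to 0.23 in each of the others. Meeting the rule therefore does not show that the numbers pair mice. Nothing in the labels says what the numbers mark. Replicates of a group differed by more than counting noise, with 5.54 to 60.0 as the chi-square statistic over its degrees of freedom. The labels do not say whether each sample came from 1 mouse or from pooled animals, and p-values measure only the spread between these samples. Intervals from the model cover that spread.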

Additional observations from a re-analysis of the deposited data

How the results depend on the processing

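The Itgae call with rIL-12 against no leukemia held in 24 of 25 alternatives. It was lost only in the methods' t-test after adjustment (adjusted p = 0.0981), and Itgae, Itgax and Itgb8 were not tested where probes at or below the viral probe were removed. Itgae with vehicle was called in 8 of 25 alternatives and Itgax between rIL-12 and vehicle in 8 of 25. Scaling to housekeeping probes moved the median of all probes to -0.25 with rIL-12 against no leukemia and -0.44 against vehicle, and total count scaling to -0.15 and -0.28, from 0.02 and -0.08. Of the called probes, 97 of 125 and 154 of 182 were then lower with housekeeping scaling and 83 of 120 and 85 of 127 with total counts, against 68 of 138 and 41 of 108. With median scaling 30 of 139 were lower against vehicle. The low counts of Itgae, Itgax and Itgb8, near or under the viral probe, limit their precision. Apart from construction (fewer probes or mice), the cause of each change below was not tested.

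Integrin probes called with vehicle against no leukemia were 0, and 1 with the replicate block, median scaling, the 2 groups alone, DESeq2 and the methods' t-test unadjusted (0 to 1 without a mouse). With rIL-12 against no leukemia they were 1, and 3 with housekeeping scaling and 0 with the viral probe filter and the adjusted t-test (1 to 2 without a mouse). Between rIL-12 and vehicle they were 1, and 2 with housekeeping scaling and 0 with DESeq2 size factors, quantile normalization, the viral probe filter, a prior count of 10, the 2 groups alone, the adjusted t-test and a 2-fold threshold (0 to 1 without a mouse). With the replicate block that count stayed at 1, with Itgae called (adjusted p = 0.0397, edgeR) and Itgax not (adjusted p = 0.0547, edgeR). It was also 1 with median scaling and DESeq2, which called Itgal and Itgae, respectively, and not Itgax.

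Ligand and signaling probes called with vehicle were 1, and 0 with housekeeping scaling and the adjusted t-test and 2 with the 2 groups alone and DESeq2 (0 to 1 without a mouse). With rIL-12 against no leukemia they were 3, and 5 with housekeeping and total count scaling, 2 with the replicate block (Zap70 not called, adjusted p = 0.0514, edgeR), quantile normalization, the 2 groups alone and the unadjusted t-test, and 0 with the adjusted t-test (2 to 4 without a mouse). Between rIL-12 and vehicle they were 2, and 1 with the replicate block, the unadjusted t-test and the 2-fold threshold, 4 with housekeeping scaling, 3 with median and total count scaling and DESeq2, and 0 with the 2 groups alone and the adjusted t-test (0 to 3 without a mouse).

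Signs turned for small changes. With Cd8a in place of Cd3 the Itgae ratio with vehicle was 0.15, and without a mouse its Cd3 ratio between rIL-12 and vehicle ran from -0.88 to 0.12. The ratio of Itgav to Itgb3 with vehicle was -0.26 after subtracting the viral probe (-0.0074 to 0.29 without a mouse), and the ratio of Itgav to Itgb8 with rIL-12 against no leukemia ran from -0.34 to 0.12. Viral probe subtraction raised the ratio of Itgav to Itgb3 to 2.53 and 2.78 in the rIL-12 comparisons. Raw Itgav counts with vehicle were 108, 114 and 72, against viral probe counts of 92, 111 and 66. Itgav was left at the floor in 1 mouse without leukemia, so these sizes depend on small remainders. Subtraction gave no value for the ratio of Itgav to Itgb8, because Itgb8 was left at the floor in all mice. With housekeeping and total count scaling, log2 fold changes with rIL-12 against no leukemia were -0.11 and -0.000886 for Itgal, -0.20 and -0.10 for Itgav and -0.18 and -0.072 for Itgb8, and against vehicle -0.17 and -0.000672 for Itgav and -0.35 and -0.19 for Itgb8. Itgb8 was also -0.057 with vehicle by quantile normalization and -0.00108 between rIL-12 and vehicle with the filter on a mean count of 20. Zap70 with vehicle was -0.0062 with median scaling, -0.0032 with DESeq2 size factors and -0.0050 with DESeq2. Without a mouse, log2 fold changes with rIL-12 against no leukemia ran from -0.042 to 0.18 for Itgav and -0.014 to 0.32 for Itgb8, those with vehicle from -0.11 to 0.31 for Itgb8 and -0.15 to 0.16 for Zap70, and those of Itgb8 between rIL-12 and vehicle from -0.17 to 0.21.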
